A study of Mus musculus with 8 samples.

Results

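The genes described are the SLAM receptor family and its adaptor SAP: the receptor genes Slamf1, Ly9, Cd48, Cd244a, Cd84, Slamf6, Slamf7, Slamf8 and Slamf9, and the adaptor gene Sh2d1a. Their probe sets were found by gene symbol in the platform's annotation. All 10 genes were measured, by 1 probe set each, among 19505 named genes. The family was picked because Slamf7 was already known to be among the genes with the largest difference between the groups, so the differences of the members between hBD-2 and PBS are given as a description, with no test. The arrays hold RNA of splenic T cells of male wild-type C57BL/6 mice, isolated with a pan T cell kit as a mixture of CD4 and CD8 cells. Both groups were activated with microbeads that engage CD3 and CD28, at equal numbers of beads and cells, and were kept for 48 h with human beta-defensin-2 (hBD-2, an antimicrobial peptide of epithelia, 4 arrays) or with phosphate-buffered saline (PBS, the vehicle, 4 arrays). The labels give the dose of the peptide as 60 µL/mL, a volume with no mass, and name 4 mice without saying which array came from which mouse.

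SLAM receptors are immunoglobulin-like surface proteins of blood cells that pass signals between cells in contact. Most of them bind a second copy of themselves on the neighbouring cell, while CD48, which is held by a lipid anchor, is the ligand of CD244 and of CD2. The cytoplasmic tails of several members carry tyrosine switch motifs that recruit SAP or the related EAT-2 adaptors, and through SAP the kinase Fyn. In T cells the family is best known for its part in help to B cells, in natural killer T cell development and in cytotoxicity.

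T cell markers were bright on every array. Cd3e, a chain of the T cell receptor complex, had log2 values of 11.43 to 11.50 on the hBD-2 arrays and 11.50 to 11.58 on the PBS arrays. Cd8a lay at 10.80 to 10.89 and 10.65 to 10.75, and Cd4 at 9.59 to 9.93 and 9.67 to 9.87, in the same order. Of 14 T cell markers, 1 fell, and 2 were at an unadjusted limma p under 0.05. Over all genes, 4.46% passed in either direction and 22.3% were at an unadjusted limma p under 0.05. The falling marker was Themis, a signalling protein of developing T cells (10.81 ± 0.165 with hBD-2 and 11.25 ± 0.0162 with PBS, limma adjusted p = 0.0297). Its call was lost in 8 of 16 alternatives, 7 of them omissions of a single array (highest limma adjusted p of these = 0.0814). The NK cell markers Ncr1 (2.71 to 3.19 and 2.86 to 3.09) and Klrb1c (2.74 to 3.53 and 2.74 to 3.09) stayed below the arrays' lower quartiles, which ran from 3.62 to 3.78 log2 units. Both were picked from the NK gene list after their values were seen. Other genes of that list were bright, with means of 9.71 and 10.20 for Nkg7, 8.55 and 8.41 for Klrd1 and 6.49 and 7.44 for Klrc1. Whether NK cells were present was not tested. B cell markers varied widely within each group. The mean log2 level of 12 B cell markers was 4.66, 5.76, 4.68 and 5.66 on hBD-2 replicates 1 to 4, against 4.46, 5.18, 4.61 and 5.31 on PBS replicates 1 to 4, so that the groups overlapped. All 12 had a higher mean with hBD-2, by 0.11 to 0.71 log2 units (median 0.20), and none of them passed (limma, 0 at an unadjusted p under 0.05 as well). The part of B cells in the members' differences was not tested. For 16 macrophage and dendritic cell markers the mean was 3.87 to 4.13 with hBD-2 and 3.85 to 4.10 with PBS. Of these, 1 was lower and 0 higher, where 4.46% of all genes passed. At an unadjusted limma p under 0.05 were 5, where 22.3% of all genes were. The lower member was Itgam (3.99 ± 0.130 and 4.61 ± 0.352, limma adjusted p = 0.0461). Its call was lost in 8 of 15 alternatives, 7 of them omissions of a single array (highest limma adjusted p of these omissions = 0.126). The monocyte marker Cd14 was at 4.04 ± 0.116 with hBD-2 and 3.72 ± 0.0705 with PBS (limma adjusted p = 0.0740), Siglech at 4.18 ± 0.183 and 3.88 ± 0.198 (0.184), C1qa at 3.50 ± 0.187 and 3.20 ± 0.207 (0.187), and Vcam1 at 3.18 ± 0.192 and 3.53 ± 0.0265 (0.0863). None of 6 plasma cell markers passed (0 unadjusted), at 3.87 to 4.09 and 3.79 to 3.91. SLAM receptors also occur on these cell types, and in a bulk sample fewer cells of a type and less RNA per cell cannot be told apart.

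Slamf7 was the member that differed most. SLAMF7, also called CRACC or CS1, is a homophilic receptor of NK cells, activated T cells and plasma cells that signals through EAT-2. Its probe set (TC0100003550.mm.2) had log2 values of 7.98, 7.92, 6.86 and 7.35 on hBD-2 replicates 1 to 4, against 9.36, 9.44, 9.09 and 9.19 on PBS replicates 1 to 4. The highest hBD-2 array lay more than 1 log2 unit below the lowest PBS array, and the groups did not overlap. The means were 7.53 ± 0.528 with hBD-2 and 9.27 ± 0.158 with PBS (SD, n = 4 each), a log2 fold change of -1.74 with a standard error (SE) of 0.213. On the linear scale this was 3.35-fold lower, with a 95% interval of 2.43-fold to 4.63-fold from the fit. The fit shares variance across genes, so for Slamf7 the SE and interval are narrower than its own arrays alone would give. By signed fold change Slamf7 was number 7 from the lowest of the 19505 genes.

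The hBD-2 arrays also differed among themselves in Slamf7. Its SD of 0.528 log2 units there was larger than that of 99.6% of genes, against a median SD of 0.167 over all genes in that group. On the PBS arrays its SD lay at the percentile 57.1. Replicates 3 and 4 had the lowest Slamf7 values, and the same arrays had the narrowest interquartile ranges of all their values (3.45 each, against 3.64 and 3.57 for hBD-2 replicates 1 and 2 and 3.64 to 3.76 for PBS). With each array's level trend removed the log2 fold change was -1.66, and without both of these arrays it was -1.32. The remaining 9 members had SDs of 0.0960 to 0.199 with hBD-2 and 0.0690 to 0.283 with PBS.

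**Figure D1:**
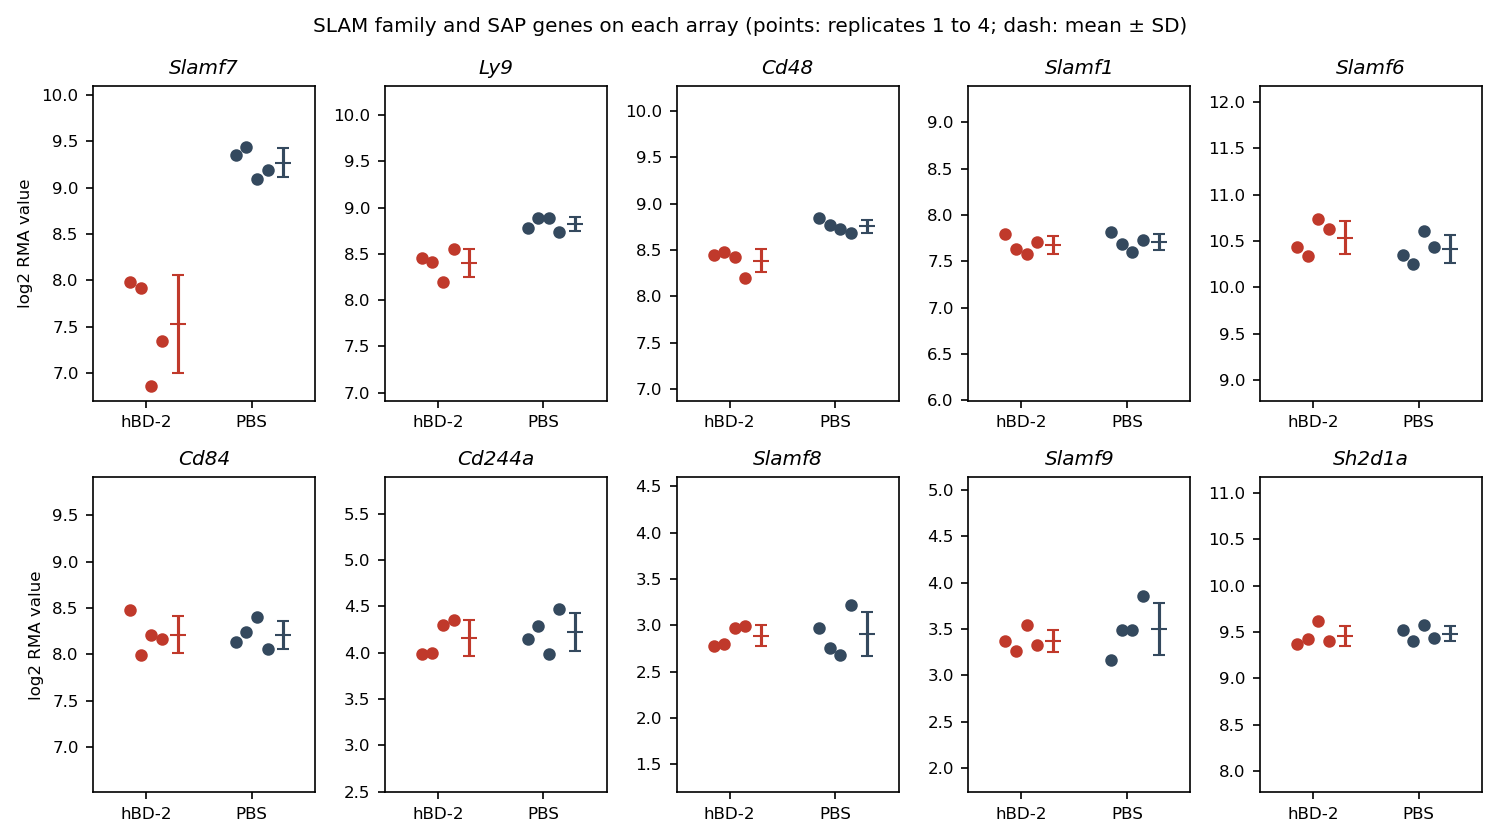
Log2 RMA values of the 10 genes on each array, hBD-2 left and PBS right, with points for replicates 1 to 4 and a dash with bars for the mean ± SD (n = 4 each). Every panel spans the same number of log2 units. The Slamf7 points lie between 6.86 and 7.98 with hBD-2 and between 9.09 and 9.44 with PBS, and the groups are apart for Ly9 and Cd48 too.

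Promoter windows were taken from RefSeq (build GRCm38.p6), 250 bases before to 50 after a gene's annotated start, and were found for 8 of the 10 genes, Ly9 and Sh2d1a being the others. Shown are the windows of Slamf7 (chr1:171648950-171649249, minus strand), of Cd48 (chr1:171681742-171682041, plus strand), a lower neighbour of Slamf7, and of Slamf8 (chr1:172590519-172590818, minus strand), which stayed near the floor in both groups. Capitals mark every match, on either strand, to TGANTCA (bound by AP-1), ACGTG (the core of the site bound by hypoxia-inducible factors) or GAAAGT (a core of the site bound by Blimp-1). CACGTG counts on both strands, as 2 overlapping matches of ACGTG.
Slamf7: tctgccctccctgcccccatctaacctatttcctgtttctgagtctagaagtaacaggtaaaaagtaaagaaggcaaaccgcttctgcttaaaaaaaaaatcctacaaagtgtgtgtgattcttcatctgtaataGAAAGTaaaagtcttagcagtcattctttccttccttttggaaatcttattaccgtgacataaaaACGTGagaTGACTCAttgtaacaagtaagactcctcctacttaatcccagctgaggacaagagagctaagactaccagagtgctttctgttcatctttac
Cd48: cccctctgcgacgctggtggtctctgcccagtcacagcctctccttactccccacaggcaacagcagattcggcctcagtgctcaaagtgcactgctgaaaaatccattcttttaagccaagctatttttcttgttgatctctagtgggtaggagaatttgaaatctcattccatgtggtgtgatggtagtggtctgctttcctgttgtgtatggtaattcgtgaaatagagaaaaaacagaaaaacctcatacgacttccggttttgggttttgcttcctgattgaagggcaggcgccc
Slamf8: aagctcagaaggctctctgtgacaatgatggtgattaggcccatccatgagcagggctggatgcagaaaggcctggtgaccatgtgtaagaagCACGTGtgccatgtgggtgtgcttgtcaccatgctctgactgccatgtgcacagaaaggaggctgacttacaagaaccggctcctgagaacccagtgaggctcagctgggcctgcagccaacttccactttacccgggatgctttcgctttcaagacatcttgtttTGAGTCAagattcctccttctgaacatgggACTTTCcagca
The Slamf7 window held GAAAGT at base 136, ACGTG at base 201 and TGACTCA at base 209, counted from 1 at its 5′ end. The Slamf8 window held all 3 kinds of match too, and the Cd48 window none. Among 32851 RefSeq windows of this length, 7.81% held TGANTCA, 19.6% ACGTG and 14.3% GAAAGT, against 4, 4 and 2 of the 8 windows of the family. TGTGGT, bound by Runx factors, was in 16.8% of all windows and in 2 of these 8 (Cd48 and Cd84), and AGGTGTGA, bound by T-box factors, in 1.28% and in none of the 8. These are matches of letters, and no binding was measured.

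Ly9 and Cd48 were lower by smaller amounts. Ly9 encodes CD229, a homophilic SLAM receptor of T and B cells that recruits SAP. It had log2 values of 8.46, 8.41, 8.19 and 8.55 on hBD-2 replicates 1 to 4, against 8.78, 8.88, 8.89 and 8.73 on PBS replicates 1 to 4 (8.40 ± 0.150 and 8.82 ± 0.0778), a log2 fold change of -0.42 (SE 0.0999) or 1.34-fold (95% interval 1.15-fold to 1.56-fold). The groups did not overlap, and hBD-2 replicate 4 and PBS replicate 4 lay closest to each other. Cd48, the ligand of CD244 and CD2, had 8.44, 8.48, 8.42 and 8.20 on hBD-2 replicates 1 to 4 and 8.84, 8.76, 8.73 and 8.68 on PBS replicates 1 to 4 (8.39 ± 0.127 and 8.75 ± 0.0690). Its log2 fold change was -0.37 (SE 0.0948), or 1.29-fold (95% interval 1.12-fold to 1.49-fold), again without overlap. Cd2, its partner on T cells, was at 9.38 ± 0.0710 with hBD-2 and 9.33 ± 0.0303 with PBS (limma adjusted p = 0.781).

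The SAP-binding receptors Slamf1, Slamf6 and Cd84 had close values in both groups. Slamf1 (CD150, a homophilic receptor of activated T cells) was at 7.80, 7.63, 7.58 and 7.71 with hBD-2 and at 7.81, 7.69, 7.60 and 7.73 with PBS. Slamf6 (Ly108, which takes part in T cell contacts with B cells) was at 10.44, 10.34, 10.74 and 10.63 with hBD-2 and at 10.35, 10.26, 10.61 and 10.44 with PBS. Cd84 (SLAMF5, homophilic) was at 8.47, 7.99, 8.21 and 8.16 with hBD-2 and at 8.14, 8.24, 8.40 and 8.05 with PBS. All 3 overlapped between groups. The 95% intervals of their log2 fold changes ran from -0.23 to 0.17 for Slamf1, from -0.13 to 0.38 for Slamf6 and from -0.26 to 0.26 for Cd84.

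The adaptor gene Sh2d1a, whose protein SAP couples these receptors to Fyn, was at 9.37, 9.43, 9.62 and 9.40 on the hBD-2 arrays and at 9.52, 9.40, 9.57 and 9.43 on the PBS arrays. Its interval was -0.23 to 0.18. The groups overlapped.

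Cd244a, Slamf8 and Slamf9 were dim. Cd244a (2B4, the receptor of CD48 on NK cells and some CD8 cells) had values of 3.98 to 4.35 with hBD-2 and 3.99 to 4.47 with PBS. Slamf9 had 3.26 to 3.54 and 3.17 to 3.86, and Slamf8, known from macrophages, 2.78 to 2.99 and 2.68 to 3.22. Slamf8 lay below the arrays' lower quartiles throughout, and Slamf9 on every array but PBS replicate 4, where it was at 3.86. Their intervals were -0.35 to 0.22 for Cd244a, -0.42 to 0.17 for Slamf9 and -0.29 to 0.25 for Slamf8.

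Counted as a description in the fit across all genes, 2 of the 10 members were past the threshold, both lower with hBD-2 (Slamf7 and Ly9), where 4.46% of all 19505 genes passed in either direction, 3.66% lower and 0.800% higher. Because the members were chosen on this contrast, nothing is read from that share. The threshold was an adjusted p of 0.05, and Ly9 lay just inside it and Cd48 just outside. The groups did not overlap for 3 of 10 members, where 14.9% of all genes did not overlap. The median log2 fold change was -0.05 over the members and 0.02 over all genes. Over the members it was -0.11 with each of the 3 renormalizations, and -0.11 to -0.02 with 1 array left out. The lower share of all called genes was 82.0% (713 of 869), and 69.7% (521 of 748) with quantile normalization repeated. With any 1 array other than hBD-2 replicate 1 left out, Slamf7 was the 1 member past the threshold.

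**Figure D2:**
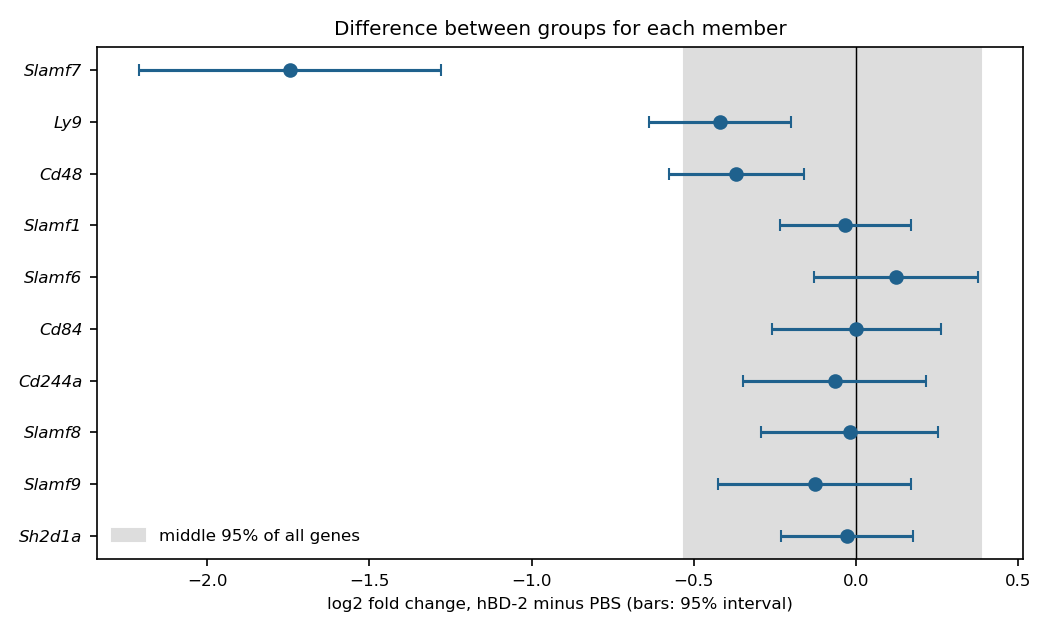
Log2 fold change, hBD-2 minus PBS, of each gene, with bars for the 95% interval from the fit (4 arrays a group), and in grey the range of the middle 95% of all genes, from -0.53 to 0.39. Slamf7 at -1.74 lies outside the grey range, and Ly9 at -0.42 and Cd48 at -0.37 lie inside it.

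Except for Sh2d1a on chromosome X, all members lie on mouse chromosome 1. In the order of the RefSeq table they form a cluster of 7 (Cd244a, Ly9, Slamf7, Cd48, Slamf1, Cd84 and Slamf6) without another measured gene between them, and Slamf9 and Slamf8 follow further along. The 3 members with lower values and no overlap, Ly9, Slamf7 and Cd48, are direct neighbours among the measured genes. On either side, Cd244a had a log2 fold change of -0.06 and Slamf1 one of -0.03. Between Slamf6 and Slamf8 lie 17 other measured genes, whose differences the choice of members did not use. None of these 17 passed (limma, 5 at an unadjusted p under 0.05, where 22.3% of all genes were, and 3 with a variance trend and robust estimation), and their log2 fold changes ran from -0.53 to 0.41. The coatomer gene Copa was at 8.85 ± 0.0876 with hBD-2 and 9.18 ± 0.106 with PBS (limma adjusted p = 0.0682), and Igsf8, an immunoglobulin-like surface protein gene, at 5.52 ± 0.251 and 6.05 ± 0.265 (0.0736). The actin-binding protein gene Tagln2 was at 10.54 ± 0.183 and 10.92 ± 0.125 (limma adjusted p = 0.0745), and Vsig8 at 5.32 ± 0.213 and 4.91 ± 0.122 (0.0762).

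**Figure D3:**
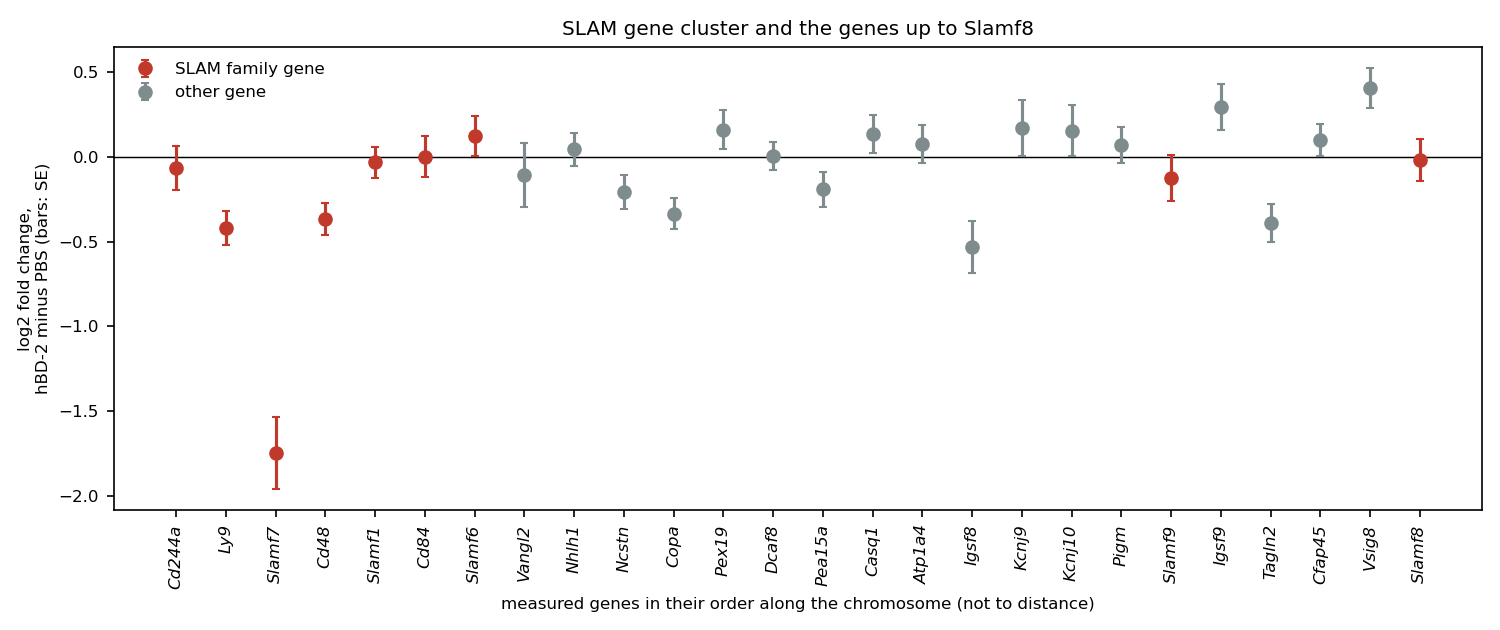
Log2 fold change, hBD-2 minus PBS, with bars for the SE, of the 26 measured genes from Cd244a to Slamf8 in their order along the chromosome, not to distance, with SLAM family genes in red and others in grey (4 arrays a group). Slamf7 at -1.74 stands apart from its neighbours Ly9 at -0.42 and Cd48 at -0.37, and the other 17 genes lie between -0.53 and 0.41.

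Downstream of the receptors, no listed transcript passed in the main fit. Of 26 listed signalling genes, 24 were measured, 0 rose and 0 fell, where 4.46% of all genes passed. At an unadjusted limma p under 0.05 were 3 of the 24, where 22.3% of all genes were. Earlier results of these data were known when this list was chosen, so nothing is read from these shares. With a variance trend and robust estimation 4 were past the threshold, 1 higher and 3 lower. Their median log2 fold change was -0.02 in the main fit and turned to 0.05 with any of the 3 renormalizations. Among the 24, the EAT-2 adaptor genes were Sh2d1b1 (3.27 ± 0.104 with hBD-2 and 3.05 ± 0.189 with PBS, limma adjusted p = 0.279) and Sh2d1b2 (4.96 ± 0.156 and 4.67 ± 0.142, 0.153). Sh2d1b1 lay below the lower quartiles in both groups. Fyn, the kinase that SAP recruits, was at 9.40 ± 0.0757 and 9.39 ± 0.0496 (limma adjusted p = 0.963). The inhibitory kinase gene Csk was at 9.39 ± 0.132 and 9.69 ± 0.0346 (limma adjusted p = 0.0889), and the phosphatase gene Ptpn6 (SHP-1), which opposes signals from activating receptors, at 8.64 ± 0.221 and 9.00 ± 0.0893 (0.0958). The lipid phosphatase gene Inpp5d (SHIP-1) was at 9.15 ± 0.0707 and 9.32 ± 0.0496 (limma adjusted p = 0.278). Lck and Lyn were not analysed here.

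Other surface receptors of T cell contacts included 2 lower members of 14 measured (12 not past the threshold, 0 higher), where 3.66% of all genes were lower. At an unadjusted limma p under 0.05 were 6 of the 14, where 22.3% of all genes were. The groups did not overlap for 6 of the 14, where 14.9% of all genes did not overlap. The list was chosen with earlier results of these data known, so nothing is read from these shares. Cd160, a receptor of CD8 and NK cells, had values of 7.03, 6.79, 6.75 and 6.63 on the hBD-2 arrays and 7.72, 7.72, 7.77 and 7.60 on the PBS arrays. It was 1.87-fold lower (log2 fold change -0.91, SE 0.103, limma adjusted p = 0.000893). Icos, a costimulatory receptor that T follicular helper cells need, was at 10.15 ± 0.105 and 10.55 ± 0.0600, 1.33-fold lower (limma adjusted p = 0.0307). The call of Icos was lost in 8 of 16 alternatives, 6 of them omissions of a single array (highest limma adjusted p of these omissions = 0.0965). Tigit, an inhibitory receptor, was at 5.95 ± 0.257 and 6.50 ± 0.206 (limma adjusted p = 0.0530), and Crtam, an adhesion receptor of activated T cells, at 6.40 ± 0.108 and 6.68 ± 0.111 (0.122). Cd2ap, an adaptor that binds the tail of CD2, was at 6.85 ± 0.115 with hBD-2 and 6.57 ± 0.140 with PBS (limma adjusted p = 0.144), and Cd101 at 6.01 ± 0.221 and 6.30 ± 0.0678 (0.169). Crtam, Cd2ap and Cd101 were all without overlap between the groups.

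The development of T follicular helper and natural killer T cells needs SLAM receptors and SAP. Of 19 genes of these cells, 1 fell and 18 did not pass, where 4.46% of all genes passed. At an unadjusted limma p under 0.05 were 8 of the 19, where 22.3% of all genes were. Nothing is read from these shares either, since this list was chosen with earlier results of these data known. The falling gene was Icos. The median log2 fold change was -0.18, with 12 of the 19 below 0, and -0.09 with quantile normalization repeated. Cxcr5, the receptor that guides T cells to follicles, was at 7.13 ± 0.137 with hBD-2 and 7.49 ± 0.0874 with PBS (limma adjusted p = 0.0621), and Irf4, a transcription factor of activated lymphocytes, at 7.82 ± 0.348 and 8.34 ± 0.185 (0.0928). Pdcd1 was at 6.07 ± 0.190 and 6.42 ± 0.194 (limma adjusted p = 0.131), and Il4, below the arrays' lower quartiles, at 3.16 ± 0.139 and 3.45 ± 0.170 (0.153). For Bcl6, the master regulator of T follicular helper cells, the log2 difference was 0.14 (limma adjusted p = 0.500). For Zbtb16, that of natural killer T cells, it was -0.01 (0.986). Bcl6 and Zbtb16 were chosen for their role after their values were seen.

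Many NK receptor and NK cell genes are also expressed by activated CD8 cells. Of 15 measured, 3 were lower, 12 not past the threshold and 0 higher, where 3.66% of all genes were lower. At an unadjusted limma p under 0.05 were 6 of the 15, where 22.3% of all genes were. This list too was chosen with earlier results of these data known, so nothing is read from these shares. The median log2 fold change was -0.15, and 11 of the 15 were below 0. With each of the 3 renormalizations the median was -0.22. Klrc1, the inhibitory receptor chain NKG2A, had 6.61, 6.51, 6.34 and 6.49 on the hBD-2 arrays and 7.47, 7.52, 7.34 and 7.41 on the PBS arrays, 1.93-fold lower (log2 fold change -0.95, SE 0.0933, limma adjusted p = 0.000450). Gzma, the protease granzyme A, had 5.74, 5.87, 6.12 and 5.54 against 7.23, 6.52, 6.95 and 6.79, 2.08-fold lower (limma adjusted p = 0.00451). Nkg7, a protein of cytotoxic granules, was at 9.71 ± 0.139 and 10.20 ± 0.0937, 1.40-fold lower (limma adjusted p = 0.0204). Its call was lost in 6 of 16 alternatives, 5 of them omissions of a single array (highest limma adjusted p of these omissions = 0.0708). Klrd1, the partner chain of NKG2A, was at 8.55 ± 0.147 and 8.41 ± 0.138 (limma adjusted p = 0.486), and the activating receptor gene Klrk1 was at 6.41 ± 0.149 and 6.81 ± 0.198 (0.0797). The mean log2 level of the 15 genes was 5.32 to 5.42 with hBD-2 and 5.63 to 5.69 with PBS. Among those not past the threshold, the NK receptor genes Klre1 (4.68 ± 0.299 with hBD-2 and 5.32 ± 0.400 with PBS, limma adjusted p = 0.0900) and Klra7 (3.81 ± 0.218 and 4.11 ± 0.180, 0.189) had lower means with hBD-2. Eomes, a transcription factor of NK and CD8 cells, was at 8.69 ± 0.143 and 8.91 ± 0.136 (limma adjusted p = 0.239). The part of NK cell number in the Slamf7 difference was not tested.

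Over all 8 arrays, the gene whose profile was nearest to that of Slamf7 was Idi1, an enzyme of isoprenoid synthesis. Likeness was the root mean square difference, in log2 units, between 2 profiles after each gene's mean over the 8 arrays was subtracted. It mixes the difference between groups with the spread within them, so a similar fold change alone can give a low value. Ndrg1, among the nearest genes, had an SD of 0.0214 on the PBS arrays, where that of Slamf7 was 0.158. The value was 0.112 for Idi1, 0.122 and 0.129 for Mt2 and Mt1, whose metallothionein proteins bind zinc, and 0.172 for the glucose transporter gene Slc2a3. Next came Ndrg1 (0.205), a gene induced by low oxygen, the sterol enzyme gene Nsdhl (0.243), the interferon gamma gene Ifng (0.249), the oxygen sensor gene Egln3 (0.252), the isoprenoid enzyme gene Fdps (0.270) and the potassium channel gene Kcnk5 (0.274). On hBD-2 arrays, Idi1 had an SD of 0.506, Mt2 of 0.469 and Kcnk5 of 0.544, near that of Slamf7. The SDs of the remaining nearest genes were smaller there, from 0.253 for Nsdhl to 0.418 for Ifng. Of 19504 genes ranked by likeness to Slamf7, Ly9 was number 944 (0.726) and Cd48 number 1323 (0.756). The remaining members ranked from 6276 (Slamf1, 0.907) to 15472 (Slamf6, 1.04). By signed fold change alone, Ly9 was number 937 and Cd48 number 1254 from the lowest. Their likeness ranks thus mostly restate the contrast on which the members were chosen, and nothing more is read from them. All profiles come from the same 8 arrays, whose shared spread enters every likeness.

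**Figure D4:**
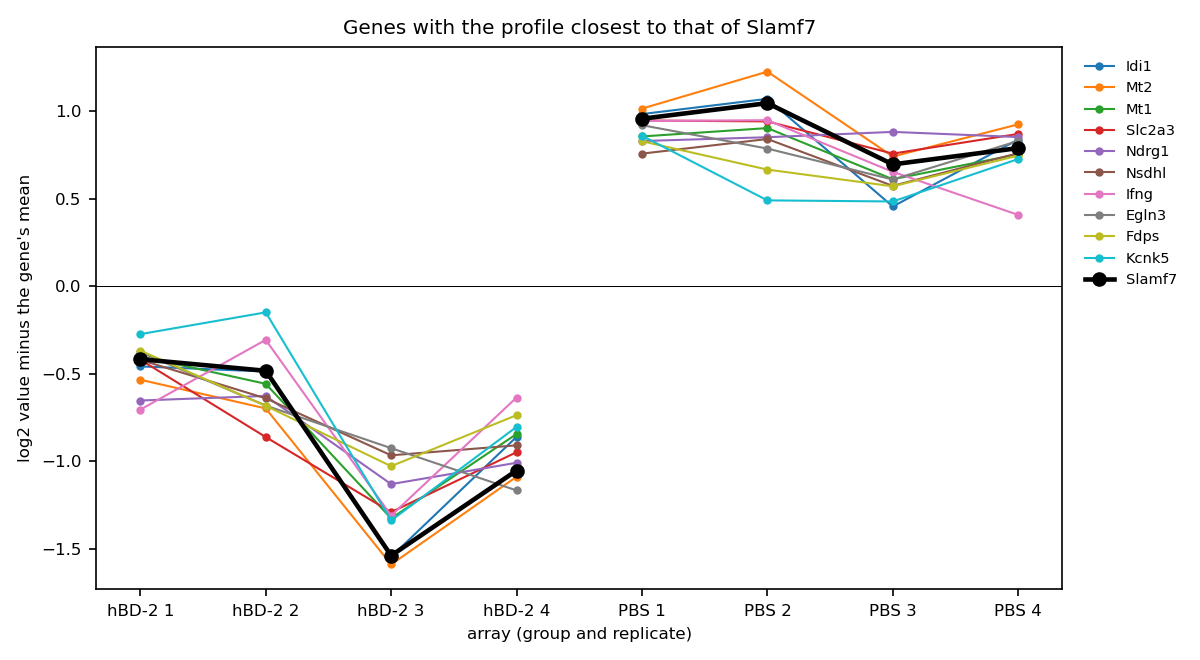
Log2 value minus the gene's mean over the 8 arrays, for Slamf7 in black and the 10 genes with the nearest profile, on hBD-2 replicates 1 to 4 and PBS replicates 1 to 4. Lines join the values of one gene within a group and replicates have no order; every gene shown is lower on all hBD-2 arrays than on any PBS array, as the choice for likeness to Slamf7 makes likely.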

How the data were processed

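RNA of 8 T cell cultures (4 with hBD-2, 4 with PBS) was measured on one-colour Affymetrix arrays. The authors deposited log2 values of 22203 probe sets, made with oligo and RMA per the submitters' processing notes, and all 8 columns were used. The sources used here give no version, setting or annotation build. Precision is limited by the number of arrays and of the mice behind them. Platform annotation named 19572 probe sets with 1 gene each and listed 2631 without a gene. Where a gene had several probe sets (55 genes), the one with the highest mean was kept, which left 19505 genes. Array medians lay between 5.30 and 5.42, and correlations between arrays over genes between 0.983 and 0.994, with 0 pairs of identical arrays.

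The groups were compared by a linear model in limma 3.58.1 under R 4.3.3 (moderated by eBayes, no block, two-sided, hBD-2 minus PBS), with Benjamini-Hochberg adjustment over all 19505 genes and a threshold of 0.05. No dim gene was left out. The labels do not tie arrays to mice, so p-values measure the spread between these samples. The fit was tested on simulated data. The members and the gene lists were chosen with earlier results of these data known. Of the 10 lists, that of the locus neighbours was filled by position between the members. All members are named. Of every other list, genes past the threshold and up to 4 others with the smallest p may be named, along with the 10 genes most like Slamf7. Cd2, Fyn, Sh2d1b1, Bcl6, Zbtb16, Klrd1 and the markers Cd3e, Cd4, Cd8a, Ncr1 and Klrb1c fall outside that rule and were chosen for their role after their values were seen. Alternatives were 3 renormalizations (quantile, cyclic loess, level trend), the replicate number as a block, the mean over probe sets, a filter at the percentile 40 of mean level, a variance trend with robust estimation, and omission of arrays. A comparison of protein sequences was planned and not run, since no protein table was used here.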

Additional observations from a re-analysis of the deposited data

How the results depend on the processing

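As a description, since Slamf7 was chosen on this contrast, its log2 fold change was -1.90 to -1.52 with 1 array left out and -1.32 without hBD-2 replicates 3 and 4. The count of members past the threshold, 2, became 1 with quantile normalization, cyclic loess, level trend removal, the replicate block and without hBD-2 replicates 3 and 4, and 3 with the filter on dim genes and with a variance trend and robust estimation, and ran from 1 to 3 with 1 array left out. Ly9 lost its call in 12 of 16 alternatives, and Cd48 gained one in 3. The count over all genes, 869, became 1541 with the filter on dim genes, 2033 with a variance trend and robust estimation, 128 without hBD-2 replicates 3 and 4, and 312 to 1396 with 1 array left out (highest when hBD-2 replicate 1 was dropped, 390 and 363 for dropping hBD-2 replicate 3 or 4, and 312, 338 and 373 for dropping PBS replicate 1, 2 or 4). Signalling genes past the threshold, 0, became 1 with the filter and 4 with trend and robust estimation (0 to 0 with 1 array left out). Locus neighbours, 0, became 4 and 3 under the same settings, and 0 to 1 with 1 array left out. T follicular helper and natural killer T cell genes, 1, became 0 with quantile normalization, 2 with the filter, 3 with trend and robust estimation, 0 without hBD-2 replicates 3 and 4, and 0 to 5 with 1 array left out. NK genes, 3, became 5 with trend and robust estimation, and 2 to 4 with 1 array left out. The filter tests fewer genes and both omissions use fewer arrays; otherwise the cause was not tested. With the replicate block 857 genes and 1 member passed, and the block moved the call of Ly9 but not that of Slamf7. With the block the SE of the Slamf7 log2 fold change was 0.142, against 0.213 without it. The deviations of arrays with the same number correlated at 0.0048 to 0.181 over genes, above 0.1 in 2 of 4 pairs. Of the 8 arrays, 5 correlated best with their own number. In both groups the mean of the B cell markers was higher on replicates 2 and 4 than on replicates 1 and 3. The labels do not tie the numbers to mice, so the main fit used no block. These values do not settle whether equal numbers mark pairs. Where a gene lies near the arrays' lower quartiles, signal over background limits what can be seen.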
